A study of Arabidopsis thaliana with 12 samples.

Results

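CHLM (AT4G25080) encodes the Mg-protoporphyrin IX methyltransferase of chlorophyll synthesis, and CHLP (AT1G74470) encodes geranylgeranyl reductase, which makes the phytyl tail of the chlorophyll molecule. These 2 genes were taken as the features annotated with exactly 1 gene, that gene being CHLM or AT1G74470. Each has 1 such feature, so they account for 2 of the 692 features with 1 gene and of the 3439 features on the array. Of the 870 features annotated with several genes, 0 include either gene. The rule uses annotation and no measured value, but the pair of genes was proposed with earlier results of these data known.

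The study measured total RNA of wild-type Arabidopsis thaliana, ecotype Columbia 0, on expression arrays with 1 channel per sample. The control group was 6 arrays of light-adapted plants. The other group was 6 arrays of plants that had been kept in darkness for 1 h and then returned to light, called recovery here. The recovery time is 2 h in the titles and descriptions and 1 h in the source names, and the labels do not settle which applies. All samples share the genotype, and no tissue, age or growth condition is given in the labels used here. Since plants were not sampled when the dark hour ended, a response to the dark and a response to renewed light cannot be told apart.

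In plants, chlorophyll is made in the plastid from glutamate by way of protoporphyrin IX. Magnesium is inserted into the ring, and the enzyme encoded by CHLM then moves a methyl group from S-adenosylmethionine onto it, giving Mg-protoporphyrin IX monomethyl ester. After ring closure and the light-requiring reduction of protochlorophyllide, chlorophyll synthase attaches a prenyl tail. The enzyme encoded by CHLP reduces geranylgeranyl to phytyl groups, which form that tail and also the side chain of tocopherols. In angiosperms the pathway stops at protochlorophyllide in darkness, so a dark interval followed by light bears on it directly.

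The deposited values are intensities from 0 to a ceiling of 100, taken as linear, and the highest value was 100 on every array. Whether each array had been scaled to its brightest feature before deposit is not stated. The median intensity ran from 0.0710 to 0.103 on the light-adapted arrays and from 0.0358 to 0.0400 on the recovery arrays, while the summed intensity spanned 2286 to 3265 and 2288 to 3314. The arrays numbered 3 and 4 had the highest sums in both groups, from 3233 to 3314, against at most 2593 on the others. Arrays 1 and 2, 3 and 4, and 5 and 6 lay close together in such values and are called sets below, a division drawn from the data, which the labels do not state. Of the 10 loci listed as marks of green tissue, 3 were on features with 1 gene. These were the antenna gene LHB1B2, the phosphoribulokinase gene PRK and the photosystem I gene PSAN, and on every array each was brighter than at least 93.69% of all features. Of 6 root loci 1 could be measured, RALFL32, whose intensity was at most 0.224. By rank it was brighter than 26.8% to 74.5% of features on light-adapted arrays and 0% to 52.8% on recovery arrays. Of the 7 seed and pollen loci, 0 were on features with 1 gene. The labels do not say whether replicates were separate plants, so the p-values measure the spread between these arrays, which may be technical.

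On the deposited scale the 2 genes moved apart. CHLM was lower and CHLP higher in recovery in all 6 same-numbered pairs of arrays, by a mean of -0.46 ± 0.400 and 0.38 ± 0.264 on the log2 scale (SD, n = 6 pairs). After quantile normalization neither gene passed the test of the whole table, and both had small positive differences: 0.34 for CHLM and 0.30 for CHLP. In RNA from whole samples, fewer cells of a type and less RNA per cell cannot be told apart.

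The deposited intensity of CHLM on light-adapted arrays 1 to 6 was 0.165, 0.174, 0.275, 0.320, 0.165 and 0.185. On recovery arrays 1 to 6 it was 0.140, 0.161, 0.248, 0.239, 0.0741 and 0.116. Arrays 3 and 4 were the highest in both groups, recovery array 5 was the lowest of all, and the groups overlapped. The light-adapted mean was 0.214 ± 0.0666 and the recovery mean 0.163 ± 0.0688 (SD, n = 6 each), so the gap between the means was smaller than either SD. Within a number, the recovery array always had less: 84.6%, 92.8%, 90.3%, 74.7%, 44.9% and 62.6% of the light-adapted intensity for numbers 1 to 6. The shortfall was least in numbers 1 to 3 and most in number 5.

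For CHLP the deposited intensity on light-adapted arrays 1 to 6 was 1.95, 2.32, 3.54, 3.48, 2.05 and 1.28. On recovery arrays 1 to 6 it was 3.21, 3.18, 3.87, 4.07, 2.23 and 2.01. The groups overlapped again, with arrays 3 and 4 highest in each and light-adapted array 6 the lowest of all. The means were 2.44 ± 0.901 and 3.095 ± 0.837 (SD, n = 6 each), again closer together than either SD. Within a number, recovery stood at 165%, 137%, 109%, 117%, 109% and 157% of the light-adapted intensity for numbers 1 to 6. The excess was largest in numbers 1 and 6 and smallest in numbers 3 and 5.

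**Figure D1:**
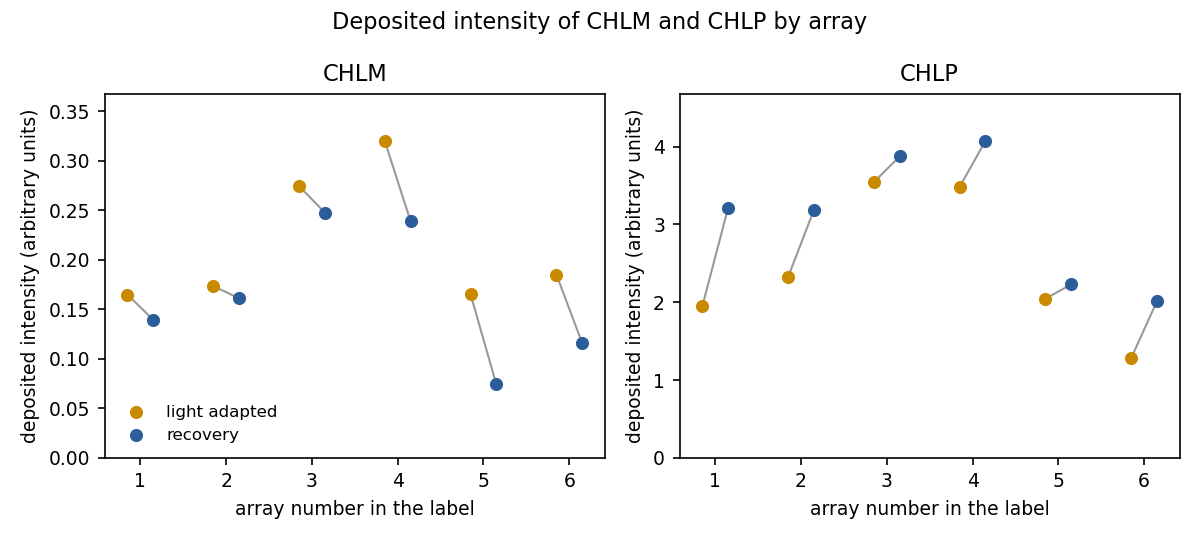
Deposited intensity in arbitrary units (vertical axes, from 0) of CHLM and CHLP on each array, by the array number in the label, with light-adapted and recovery arrays of 1 number joined by a line. All 6 CHLM lines go down and all 6 CHLP lines go up, while the level of both genes is highest at numbers 3 and 4.

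Both genes varied more among the arrays of a group than their group means differed. For CHLM the deposited log2 values spanned 0.957 over the light-adapted arrays and 1.74 over the recovery arrays, while arrays of a set differed by at most 0.221 and 0.646. For CHLP the spans were 1.46 and 1.02, and the largest gaps within a set were 0.673 and 0.146. Scaling each array to its summed intensity lowered the SD of the log2 values in light-adapted arrays from 0.416 to 0.224 for CHLM and from 0.555 to 0.364 for CHLP. In recovery arrays it went from 0.659 to 0.444 for CHLM and from 0.415 to 0.220 for CHLP. Part of the spread of both genes was thus shared with the brightness of the whole array.

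The numbers pair the arrays by the check given in the processing notes, so the pair differences were tested with an exact two-sided sign-flip permutation test over 6 pairs, whose smallest possible p is 0.03125. On the deposited scale both genes reached that smallest value, with CHLM lower in 6 of 6 pairs and CHLP higher in 6 of 6 (exact permutation p = 0.03125 each). The background for these counts is broad: among 1429 features above 0 on all arrays, 38.5% were lower in recovery in all 6 pairs and 17.3% were higher in all 6. Consistent signs were thus common in the table, more so in the direction of CHLM than in that of CHLP. Counted as 3 sets, the same test cannot go below 0.250. The set means put the CHLM difference at -0.17, -0.28 and -0.92 and the CHLP difference at 0.59, 0.18 and 0.39 for sets 1, 2 and 3, so each gene kept its sign in 3 of 3 sets on the deposited scale.

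On quantile-normalized values the pairs no longer pointed 1 way. CHLM was higher in recovery in 5 of 6 pairs, with a mean difference of 0.34 ± 0.429 (SD, exact permutation p = 0.15625), and number 5 alone was lower, at -0.32. CHLP was also higher in 5 of 6, at 0.30 ± 0.361 (exact permutation p = 0.09375), with number 3 at -0.11 and number 4 near no difference at 0.0030. Cyclic loess, which evens out differences that depend on brightness between arrays, gave 0.24 ± 0.469 for CHLM (4 of 6 pairs higher, exact permutation p = 0.3125) and 0.26 ± 0.251 for CHLP (5 of 6, exact permutation p = 0.0625). When each array was centred on its median, CHLP was higher in 6 of 6 pairs at 1.38 ± 0.321 (exact permutation p = 0.03125) and CHLM in 5 of 6 at 0.54 ± 0.519 (exact permutation p = 0.09375). These are 8 tests, 4 scalings for each gene. The same test was also run after 75th percentile centring, after total scaling and on ranks, and none of the p-values are adjusted. After total scaling CHLM was lower in 6 of 6 pairs at -0.47 and CHLP higher in 6 of 6 at 0.37 (exact permutation p = 0.03125 each). With 75th percentile centring CHLP was higher in 6 of 6 at 0.89 (exact permutation p = 0.03125). CHLM was then higher in 4 of 6 at 0.052 (exact permutation p = 0.75). Background shares were not taken for these 2 scalings. The background shares of features higher in all 6 pairs were 26.7% after quantile normalization and 39.3% after median centring.

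**Figure D2:**
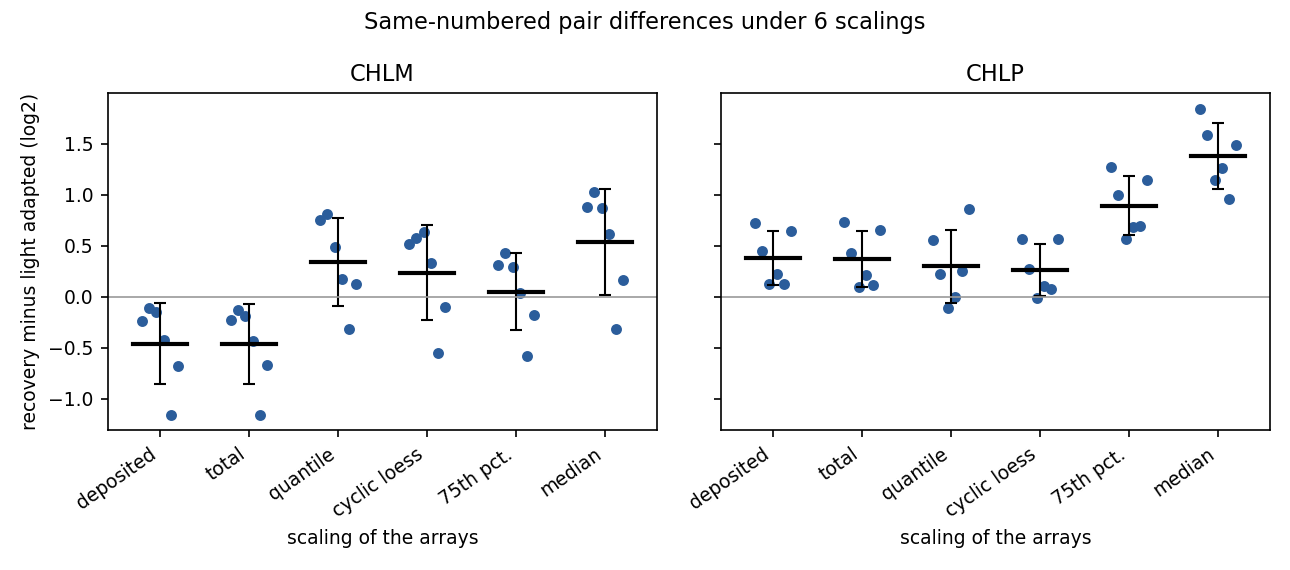
Recovery minus light adapted on the log2 scale (vertical axis) for the 6 same-numbered pairs under 6 scalings of the arrays, for CHLM and CHLP, with points in order of array number, a thick bar at the mean and whiskers of 1 SD. CHLM lies below 0 in every pair on the deposited scale and after total scaling and mostly above 0 after quantile normalization, while the CHLP mean is above 0 under all 6 scalings and largest after median centring, at 1.38.

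In the fit over the whole table, limma called 873 of the 2364 features tested at an adjusted p under 0.05, or 36.9%, with 18.5% higher and 18.4% lower in recovery. Neither gene was among them. CHLM differed by 0.34 ± 0.236 (SE), with a 95% interval of -0.17 to 0.85 and a limma adjusted p of 0.286. CHLP differed by 0.30 ± 0.229 (SE), with an interval of -0.20 to 0.80 and a limma adjusted p of 0.338. As folds the intervals run from 0.887 to 1.81 for CHLM and from 0.871 to 1.74 for CHLP, so changes up to those sizes are not shut out by the spread of these arrays. Blocking on the replicate number left the differences the same, and the limma adjusted p-values were then 0.266 and 0.291. Beside them, 2 of the 3 measured genes of the green tissue list fell in this fit, 0 rose and 1 did not pass, with a median difference of -1.28. PRK fell by 1.63 and LHB1B2 fell by 1.28 (limma adjusted p = 1.86e-05 and 5.62e-05), while PSAN was at -0.29 (limma adjusted p = 0.291). Scaling moved these as well: after median centring PRK was at -0.50 and LHB1B2 at 0.22 without a call, and PSAN was called higher at 1.01 (limma adjusted p = 0.000872). The part of green tissue content in the values of CHLM and CHLP was not tested. The root gene RALFL32 was at -0.92 and did not pass (limma adjusted p = 0.367). Its call also depended on scaling. Deposited values put RALFL32 lower in recovery with a call, at -1.96 (limma adjusted p = 0.039), and total scaling did so at -1.98 (0.0452). With the replicate block on deposited values it was at -2.05 without a call (limma adjusted p = 0.0727). Median centring (-0.98), 75th percentile centring (-1.47) and cyclic loess (-0.92) gave no call.

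Scaling moved CHLP across the threshold and turned the sign of CHLM. On the deposited scale, not normalized further, CHLM was at -0.46 ± 0.328 (SE, limma adjusted p = 0.270) and CHLP at 0.38 ± 0.301 (limma adjusted p = 0.314). There 46.4% of features were called, 36.8% lower and 9.56% higher. Blocking on the replicate number on that scale gave a limma adjusted p of 0.108 for CHLM and 0.117 for CHLP. After median centring CHLP was called as higher in recovery, at 1.38 ± 0.231 (SE, limma adjusted p = 0.000411), and CHLM was at 0.54 ± 0.268 (limma adjusted p = 0.129), with 27.3% of features called higher. Centring on the 75th percentile also called CHLP, at 0.89 (limma adjusted p = 0.00564), and left CHLM at 0.052 (limma adjusted p = 0.876), with 18.7% of features called higher. The median difference of all tested features was -0.82 on the deposited scale, 0.19 after median centring and -0.038 after quantile normalization. Relative to that median, CHLM stood higher by a like amount under each scaling: between 38.7% and 40.8% of tested features had a larger difference. For CHLP that share was 39.8% after quantile normalization and 40.1% after cyclic loess, but 19.1% on the deposited scale and under the centrings of whole arrays.

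The 2 features lie in different parts of the brightness range, where the deposited values shifted by different amounts. CHLM, at a mean intensity of 0.188 over the 12 arrays, was brighter than 60.5% of the tested features and fell in the third of 4 brightness classes. In that class the median deposited difference was -0.93 and 72.8% of the 591 features were lower in recovery. CHLP, at 2.77, was brighter than 95.01% and fell in the brightest class, with a median of -0.093 and 52.8% of features lower. After quantile normalization the medians of these classes were -0.21 and 0.0058. Each gene was therefore above the median of its own class on both scales. For CHLM on the deposited scale this means less reduced than the median feature.

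**Figure D3:**
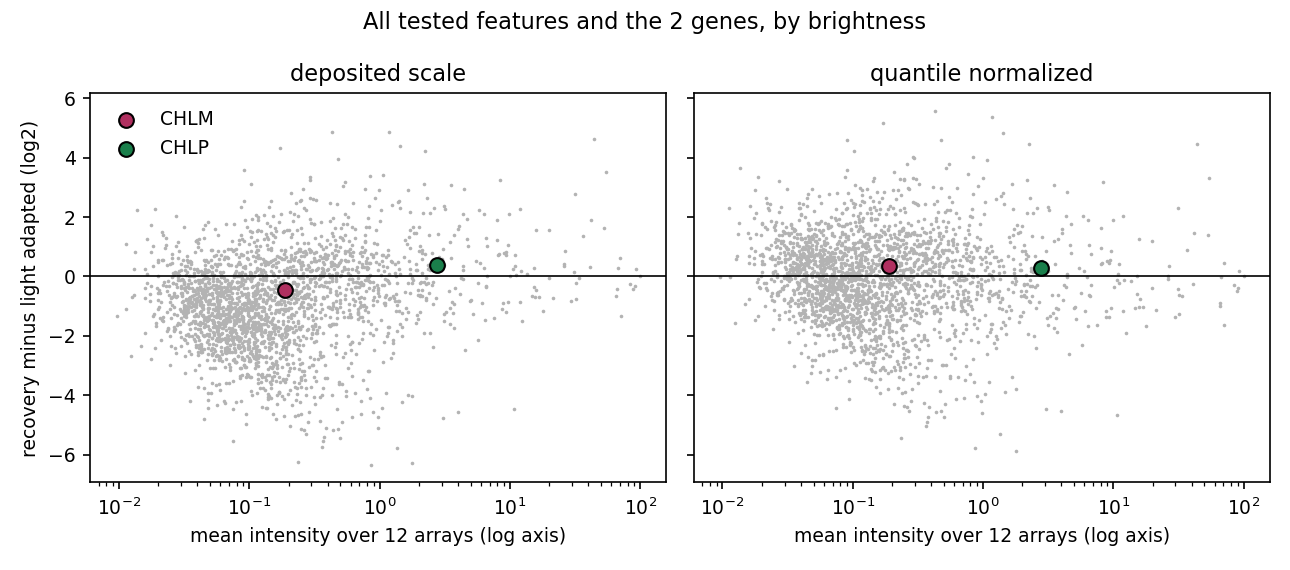
Difference between recovery and light-adapted arrays on the log2 scale (vertical axis) against mean intensity over 12 arrays (horizontal log axis) for the 2364 tested features, on the deposited scale and after quantile normalization, with CHLM and CHLP marked. On the deposited scale the dimmer features lie mostly below 0, and CHLM at -0.46 and CHLP at 0.38 lie within the bulk of features in both panels.

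The rank of each feature on its own array gives a view that no scaling of whole arrays can alter. CHLM was brighter than 62.9% to 75.02% of the 3439 features on light-adapted arrays and 65.3% to 79.9% on recovery arrays, and its rank was higher in recovery in 5 of 6 pairs. The exception was number 5, where it went from 69.0% to 65.3%. CHLP was brighter than 93.5% to 96.7% of features on light-adapted and 96.1% to 97.1% on recovery arrays, higher in 6 of 6 pairs. The mean gain in rank was 5.96 ± 6.31 percentage points for CHLM (SD, exact permutation p = 0.09375) and 0.97 ± 0.898 for CHLP (exact permutation p = 0.03125), a comparison added after the data were seen. Among the 1429 features above 0 on all arrays, 31% had a higher rank in recovery in all 6 pairs. Between 17.9% and 22.2% of features were at 0 on light-adapted arrays and between 23.3% and 28.6% on recovery arrays, and the part of these zeros in the ranks was not tested.

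Whether the 2 genes changed unequally was asked within each array, where any factor common to an array cancels. The quantity is log2 CHLP minus log2 CHLM on the same array, and it compares changes, since levels of different features cannot be set against each other. In deposited values it was 3.56, 3.74, 3.69, 3.44, 3.63 and 2.79 on light-adapted arrays 1 to 6, and 4.52, 4.30, 3.97, 4.09, 4.91 and 4.12 on recovery arrays 1 to 6. The groups did not overlap, and light-adapted array 6 lay well below the rest of its group. How many other pairs of features separate the groups in this way was not counted, so the separation is not read as particular to these genes. The means were 3.48 ± 0.351 and 4.32 ± 0.348 (SD, n = 6 each), a difference of 0.84, or 1.79-fold, with an exact two-sided permutation p of 0.00216, the smallest that 924 splits can give. It was larger in recovery in 6 of 6 pairs. The splits do not use the pairing of the numbers. A sign flip over the 6 pairs gave an exact permutation p of 0.03125, the smallest it can give, as for each gene alone. Leaving out any array kept the difference between 0.70 (without light-adapted replicate 6) and 0.91 (exact permutation p over splits at most 0.00433). The medians of the brightness classes that hold CHLM and CHLP were themselves 0.84 apart on this scale. The brightest class runs from a mean intensity of 0.359 to 100, and features as bright as CHLP were not compared apart. The part of brightness in the gap was not tested. By set the difference was 0.76, 0.46 and 1.30, and 3 sets against 3 cannot go below an exact p of 0.100.

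After quantile normalization no such difference was detected. The light-adapted mean was 3.96 ± 0.514 and the recovery mean 3.92 ± 0.375 (SD, n = 6 each), a difference of -0.041 (exact permutation p = 0.883), with 2 of 6 pairs higher. Cyclic loess gave 0.024 (exact permutation p = 0.920) with 3 of 6 pairs higher. By sign flip over the pairs the exact permutation p was 0.75 after quantile normalization and 0.875 after cyclic loess. Sets 1 and 2 were at -0.39 each and set 3 at 0.65 on quantile-normalized values, so the sets did not point the same way. The gap between CHLM and CHLP was thus present on the deposited scale and under any centring of whole arrays. It was not detected after quantile normalization or cyclic loess, and 3 scalings of this quantity were tested. The values do not settle which scale applies, because the normalization behind the deposited values is unknown.

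**Figure D4:**
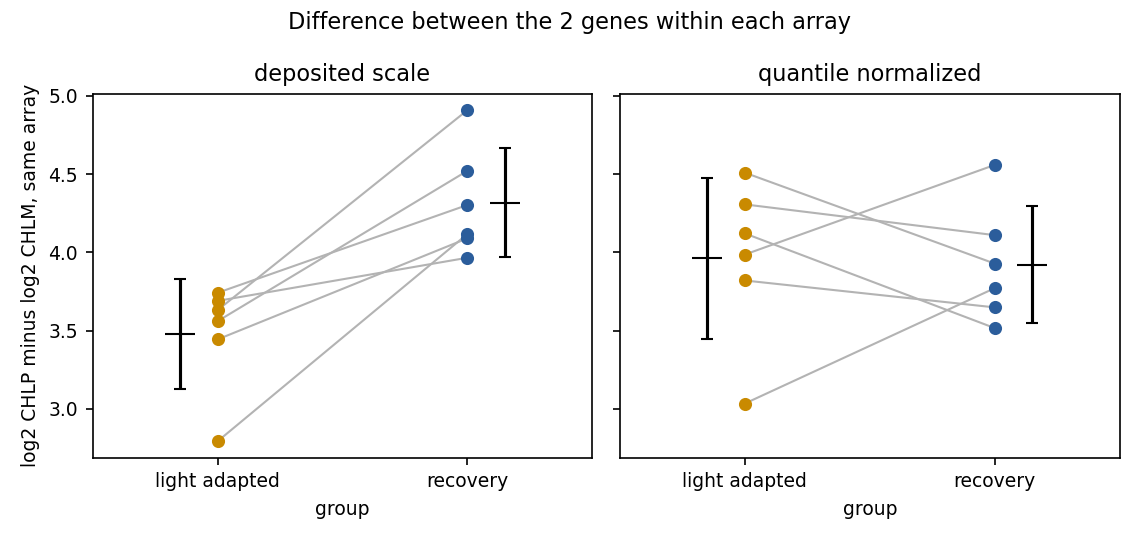
Log2 CHLP minus log2 CHLM on the same array (vertical axis) for light-adapted and recovery arrays, on the deposited scale and after quantile normalization, with lines joining arrays of 1 number and black marks for the mean with 1 SD. On the deposited scale the light-adapted arrays end at 3.74 and the recovery arrays begin at 3.97, while after quantile normalization the groups overlap.

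Of the rest of the pathway little could be read. The list of tetrapyrrole and chlorophyll synthesis and breakdown held 49 loci, of which 3 were on features with 1 gene: CHLM, CHLP and HEMA3. All 3 were tested, 1 was higher in recovery, 0 lower and 2 did not pass. The median difference of the 3 was 0.34, against -0.038 over all features tested. That median is the value of CHLM itself, so it does not describe the rest of the pathway, for which HEMA3 alone was read. Another 4 features carry list members together with other genes and are not read. Of 15 loci for phytyl supply and tocopherol synthesis, 1 was on such a feature, AT1G78620, and it was higher in recovery. Of 9 loci for S-adenosylmethionine supply, from which the enzyme of CHLM draws its methyl group, 0 were on features with 1 gene. Both calls are of a kind made for 18.5% of features.

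HEMA3 encodes a glutamyl-tRNA reductase, the entry enzyme of tetrapyrrole synthesis. Its deposited intensity was 0.233, 0.302, 0.419, 0.499, 0.234 and 0.178 on light-adapted arrays 1 to 6 and 0.447, 0.467, 0.352, 0.606, 0.591 and 0.492 on recovery arrays 1 to 6. Recovery was higher in 5 of 6 pairs, with number 3 the exception, and the groups overlapped. HEMA3 rose by 1.22 ± 0.273 (SE, limma adjusted p = 0.00384) on quantile-normalized values, and was at 0.73 on the deposited scale (limma adjusted p = 0.0494). Blocking on the replicate number on that scale gave a limma adjusted p of 0.0632, where 9.98% of features were called higher. With 3 set means against 3 the limma adjusted p was 0.0807, and 8.42% were called higher.

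For AT1G78620 the deposited intensity was 0.142, 0.128, 0.644, 0.466, 0.316 and 0.267 on light-adapted arrays and 0.702, 0.649, 1.11, 1.09, 0.917 and 0.970 on recovery arrays, each in order of array number. Every recovery array was above every light-adapted array, the nearest values being 0.649 and 0.644. The share of all features that separate in this way was not counted. Among the features above 0 on all arrays, 17.3% on the deposited scale and 26.7% after quantile normalization were higher in recovery in all 6 pairs. AT1G78620 rose by 2.14 ± 0.416 (SE, limma adjusted p = 0.00152), higher in 6 of 6 pairs, and was called under each of the 6 scalings of the 12 arrays, from 1.67 after total scaling, where 10.6% of features were called higher, to 2.68 after median centring. After cyclic loess it was at 1.87, with 19.3% called higher. With 3 set means against 3 the limma adjusted p was 0.0538. Both genes thus had larger differences than CHLM and CHLP in the same fit, a difference between genes that was not itself tested.

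**Figure D5:**
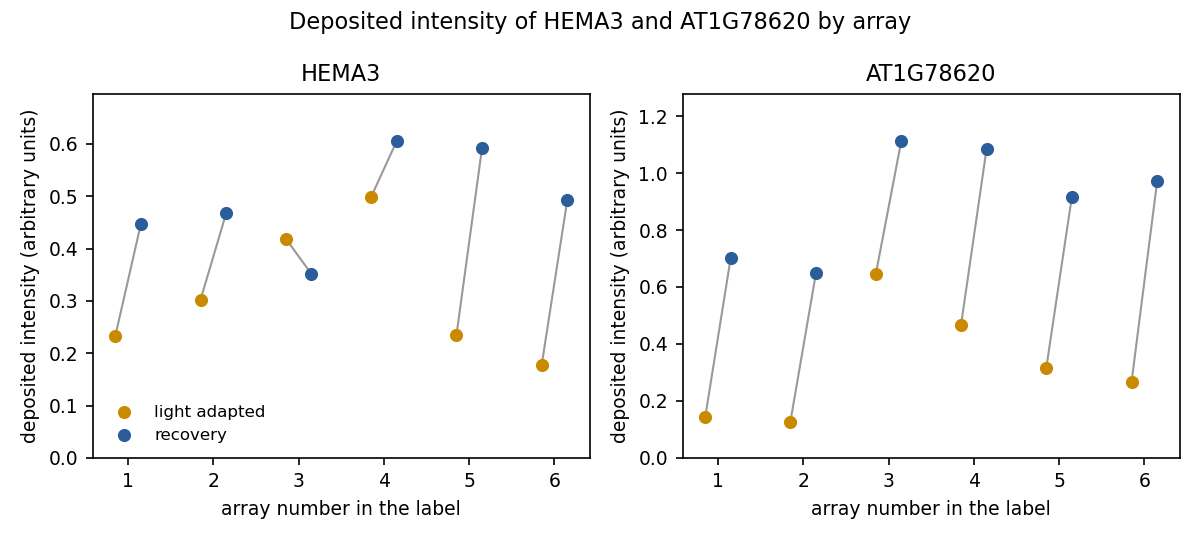
Deposited intensity in arbitrary units (vertical axes, from 0) of HEMA3 and AT1G78620 on each array, by the array number in the label, with light-adapted and recovery arrays of 1 number joined by a line. HEMA3 is higher in recovery at 5 of 6 numbers, and AT1G78620 at all 6, from 0.649 to 1.11 in recovery against at most 0.644 in light-adapted arrays.

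Genes whose values followed those of CHLM and CHLP were sought among the 257 other features with 1 gene above 0 on all 12 arrays, by Pearson correlation of quantile-normalized log2 values over 12 arrays, as a description. The highest for CHLM were CBL, a cystathionine beta-lyase gene (r = 0.692), MAMI (0.652), AT2G04700 (0.623), AT2G28660 (0.622) and AT4G17650 (0.618). Computed from deposited values, r with CHLM was 0.118 for MAMI and 0.748 for AT4G17650. The lowest for CHLM were AT5G62840 (-0.849), AT2G04360 (-0.830) and AT1G70200 (-0.808), which on the deposited scale lay between -0.0943 and 0.138. For CHLP the highest were AT4G20820 (0.871), AT2G28540 (0.867), AT1G28150 (0.793), AT3G20490 (0.785) and AT5G40030 (0.780), and the lowest AT5G19050 (-0.707), AT5G22340 (-0.685) and PRA1.B6 (-0.680).

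When the group means were taken out, so that only variation among arrays of a group remained, CHLM went most closely with AT2G46300 (r = 0.799), AT2G41120 (0.787), AT3G57440 (0.753), AT2G30320 (0.709) and CBL (0.654). CHLP went with AT4G20820 (0.864), AT2G28540 (0.838), the photosystem II gene PSB27 (0.825), AT5G40030 (0.818) and AT5G66090 (0.809). The 12 arrays share sets and array-wide brightness, so these values describe arrays as much as genes. CHLM and CHLP did not follow each other closely: their correlation was 0.355 over 12 arrays, the 51st highest for CHLM, 0.199 with group means taken out and 0.490 on the deposited scale.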

How the data were processed

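The table used holds intensities deposited by the authors for 3439 features and 12 arrays. The sources used here do not state the scanner, background correction, normalization or build. Scale and centring of the deposited intensities are therefore unknown, and no coordinates are printed. The values were read as linear because none is negative. Gene names came from the platform annotation, updated through gene identifiers to RefSeq for TAIR10.1; of 692 features with 1 gene, 690 matched, 870 have several genes and 1877 are not named.

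Values were taken to log2 with zeros missing, quantile normalized over the whole table and tested with limma 3.58.1 under R 4.3.3 (lmFit, eBayes, Benjamini-Hochberg, two-sided) for the 2364 features with at least 4 values above 0 in each group. Both genes were above 0 on all 12 arrays. Single quantities were compared with exact permutation tests in Python 3.11.15. Alternatives were the deposited scale, median, 75th percentile, total and cyclic loess scaling, a replicate block, set means, a pseudocount of 5.13e-06 for zeros, other filters, and each array left out. Total scaling, the set as a block, the replicate block after cyclic loess, ranks and set means on other scales were added after the data were seen.

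Over 1429 features, the deviations of same-numbered arrays from their group means had correlations of 0.108 to 0.193 in the 6 pairs. Between light-adapted and recovery arrays of different numbers they were -0.135 to 0.106. Since 12 of 12 arrays correlated best with their own number, the numbers were taken to pair the arrays on the evidence of the values. The number of arrays limits the precision. The rule named CHLM, CHLP, every listed gene on a feature with 1 gene, and the features with the highest (5) and lowest (3) correlation. The members and lists were chosen with earlier results of these data known.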

Additional observations from a re-analysis of the deposited data

Results flagged for a closer look

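Of 24 groups of 6 values examined for a sample far from the others, over both genes and their within-array difference on 4 scales, 3 were flagged, and chance flags about 5% of such groups. All 3 turn on light-adapted array 6. For CHLP on quantile-normalized values, its log2 value of 0.39 lay below the next at 1.18, a gap of 0.649 of the group's range. Without that array the CHLP difference was 0.13 in place of 0.30 (limma adjusted p = 0.5995). For log2 CHLP minus log2 CHLM, the same array was at 2.79 against 3.44 for the next on the deposited scale, a gap of 0.686 of the range, and the value after median centring is the same by construction, 0.686. CHLM itself gave no flag on that array, at an intensity of 0.185.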

How the results depend on the processing

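CHLM kept its sign without a call in 25 of 30 alternatives and CHLP in 26 of 30. CHLM reversed to -0.46 on the deposited scale, also with the replicate block (limma adjusted p = 0.108), with set means (0.512) and with the set as block (0.0578), and to -0.47 after total scaling (0.109). CHLP gained a call after median centring, at 1.38, also with the replicate block (limma adjusted p = 0.00176) and with set means (0.0363), and after 75th percentile centring, at 0.89. With each array left out in turn CHLM ran from 0.26 to 0.49 and CHLP from 0.13 (without light-adapted replicate 6) to 0.37, with no call. The replicate block on quantile-normalized values left CHLM at 0.34 and CHLP at 0.30, and changed no call of either gene on the 4 scales where it was run. The mean pair difference of CHLM reversed to -0.46 on the deposited scale and to -0.47 after total scaling. These negative differences passed (exact permutation p = 0.03125 each). The mean pair difference of CHLP passed on the deposited scale at 0.38, after total scaling at 0.37 and after 75th percentile centring at 0.89. It also passed after median centring at 1.38 and as ranks at 0.97 percentage points (exact permutation p = 0.03125 each). Without any pair, on quantile-normalized values, it ran from 0.19 to 0.38, against 0.25 to 0.47 for CHLM. CHLP minus CHLM, -0.041, turned to 0.84 on the deposited scale and 0.024 after cyclic loess, and ran from -0.23 to 0.069 with an array left out. With set means the count of called features was 405, and set means gave 578 on the deposited scale, 574 after median centring and 434 after cyclic loess. With an array left out the count was 781 to 858. Without set means it was 1096 on the deposited scale, 969 after median centring and 908 after cyclic loess. The highest count was 1261, with the set as block on the deposited scale. HEMA3 lost its call in 4 and AT1G78620 in 2 of 30 alternatives, with set means or, for HEMA3, also with the replicate block on the deposited scale. The cause of these changes was not tested. The signal over background of either feature is not known. A mean over features of a gene was not run, since each gene has 1 feature.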
